A study of Mus musculus with 12 samples.

Results

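The chondrocytes of *aadd* mutant zeugopods were compared with the hypertrophic chondrocytes of wild type (WT) zeugopods, in 6 of the 12 libraries of the series. Genes were kept where at least 3 of these 6 libraries, 3 *aadd* and 3 WT hypertrophic, had 5 NRPKM or more, which left 10196 of 36186 rows. NRPKM is a read count per length of transcript and per depth of the library (RPKM) with a further normalization between libraries, both made by the authors. The filter did not treat all genes alike. Of the 10196 genes, 7773 reached 5 NRPKM in all 6 libraries, 263 passed only through the 3 *aadd* libraries and 203 only through the 3 hypertrophic libraries. For the 263 and the 203 the filter itself fixed the direction, also where lists below count them. Just inside the limit, *Txnrd3* had 5.001 NRPKM in the third highest of its libraries, and just outside it *Crx* had 4.999 NRPKM.

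All libraries came from forelimb zeugopods, the segment with the radius and ulna, of mouse embryos at E15.5 on a mixed 129/CD-1 background, with cells taken by laser capture microdissection (LCM). The *aadd* embryos were homozygous for frameshift mutations in *Hoxa9*, *Hoxa10*, *Hoxa11*, *Hoxd9*, *Hoxd10* and *Hoxd11*, each made by a LoxP insertion with a small deletion in the first exon. Because the *aadd* zeugopod was small and uniform in histology, its whole chondrocyte population was captured as 1 sample, which the GEO labels call resting. The WT sample compared here was the hypertrophic zone alone, which the labels call hyperproliferative, and both kinds of sample carried some perichondrium. Genotype and zone therefore differed together and cannot be told apart in this comparison. The study describes its libraries as 3 independent sets, while the labels do not say which embryos they came from, so that *P* values measure the spread between these libraries.

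In a growing long bone, chondrocytes divide, leave the cell cycle and enlarge into hypertrophic cells that make type X collagen, mineralize their matrix and draw in vessels, osteoclasts and bone-forming cells. RUNX2, RUNX3, SP7 and MEF2C drive this maturation. SOX9, SOX5 and SOX6 hold cells in the matrix-producing state, and a loop of Indian hedgehog and parathyroid hormone-related protein (PTHrP) sets the pace of the transition. The posterior Hox genes of the A and D clusters pattern the limb segments and are expressed in limb mesenchyme and perichondrium.

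The 4 sequences below are those upstream of genes on which the comparison turns. *Ibsp* and *Col10a1* were high in every hypertrophic library, *Mmp13* was high in hypertrophic replicates 2 and 3 only, and *Hoxd10*, a mutated gene, was high in *aadd*. Each is the 250 bases before the gene's start in the RefSeq annotation of GRCm38.p6, on the plus strand, at chr5:104299037-104299286, chr10:34389731-34389980, chr9:7272264-7272513 and chr2:74691641-74691890 in the same order. Capitals mark matches, on either strand, to TGTGGT for RUNX factors or to TTTATNG for posterior HOX factors.
Ibsp: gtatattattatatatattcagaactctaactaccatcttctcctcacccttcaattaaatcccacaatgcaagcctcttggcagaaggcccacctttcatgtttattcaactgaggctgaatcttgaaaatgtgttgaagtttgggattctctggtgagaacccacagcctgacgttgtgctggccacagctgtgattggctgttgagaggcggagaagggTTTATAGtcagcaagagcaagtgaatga
Col10a1: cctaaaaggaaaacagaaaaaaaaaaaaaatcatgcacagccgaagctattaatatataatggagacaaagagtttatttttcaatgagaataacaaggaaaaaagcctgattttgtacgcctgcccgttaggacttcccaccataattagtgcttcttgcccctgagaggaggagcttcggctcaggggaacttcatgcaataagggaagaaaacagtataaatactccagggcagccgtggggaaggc
Mmp13: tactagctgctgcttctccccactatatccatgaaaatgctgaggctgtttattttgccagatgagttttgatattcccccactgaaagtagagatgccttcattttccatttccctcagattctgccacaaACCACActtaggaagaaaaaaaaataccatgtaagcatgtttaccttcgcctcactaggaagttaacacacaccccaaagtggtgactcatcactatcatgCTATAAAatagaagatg
Hoxd10: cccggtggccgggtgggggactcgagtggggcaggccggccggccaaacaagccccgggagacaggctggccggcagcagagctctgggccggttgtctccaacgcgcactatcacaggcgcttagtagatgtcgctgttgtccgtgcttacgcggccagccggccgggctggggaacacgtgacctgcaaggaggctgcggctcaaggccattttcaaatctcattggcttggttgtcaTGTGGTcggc

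The *Ibsp* window held 1 HOX match, 28 to 22 bases before the start. The *Mmp13* window held a RUNX match, 118 to 113 bases before the start, and a HOX match at 17 to 11 bases. The *Hoxd10* window held a RUNX match at 10 to 5 bases, and that of *Col10a1* held neither. Both HOX matches also hold the letters TATA. These short strings are common. The RUNX string was in 14.0% of 32851 RefSeq windows of this length, in 10.2% of the 10209 windows of genes tested, and in 10.1% and 8.25% of those of genes higher in hypertrophic and in *aadd* (39 of 386 and 35 of 424). The HOX string was in 9.81%, 5.91%, 8.03% and 4.25% of the same windows. Such a match describes the letters and was not tested for binding.

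The labelled cell type was checked against its markers. Of 10 hypertrophic markers, *Col10a1*, *Ihh*, *Pth1r*, *Panx3*, *Mef2c*, *Runx2*, *Ibsp*, *Sp7* and *Alpl* were higher in all 3 hypertrophic than in all 3 *aadd* libraries, and *Mmp13* was so too, although in replicate 1 by little. This check sets hypertrophic against *aadd* only, with genes reported again below, and does not tell the zone from the other WT zones. Depth, estimated from the value that 1 read takes, was about 2200000 to 2860000 reads in *aadd* and 2340000 to 3240000 in hypertrophic libraries. The hypertrophic libraries did not form 1 tight group. Over the genes tested, log2 values differed by a root mean square of 0.540 between replicates 2 and 3, but 1.022 and 0.942 between replicate 1 and each of them. Replicate 1 lay at 0.978 to 1.03 from the *aadd* libraries, closer than replicates 2 and 3 at 1.215 to 1.276, while *aadd* libraries differed among themselves by 0.517 to 0.635. Replicate 1 is therefore shown apart throughout.

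With criteria of an unadjusted *P* up to 0.05 and a fold change of at least 2, called the criteria below, 1300 of the 10196 genes (12.8%) differed between *aadd* and WT hypertrophic. Of these, 702 (6.89%) were higher in *aadd* and 598 (5.87%) higher in hypertrophic. Fold changes and log2 differences are given as *aadd* minus hypertrophic on the log2(NRPKM + 0.1) scale. After Benjamini-Hochberg adjustment in limma, a linear model that shares variance between genes, 908 genes (8.91%) had an adjusted *P* under 0.05, 486 (4.77%) higher in *aadd* and 422 (4.14%) in hypertrophic, and 787 (7.72%) also differed by at least 2-fold. The libraries of the 2 groups did not overlap at all for 3181 genes (31.2%). For a single gene, permuting 3 against 3 libraries exactly and two-sided cannot give a *P* below 0.1.

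Leaving out hypertrophic replicate 1 raised the numbers of genes called, while leaving out any other library lowered them. Without it 1945 genes (19.1%) passed the criteria, 1015 of them (9.95%) higher in *aadd*, and 2705 (26.5%) were under 0.05 after adjustment. The groups then did not overlap for 5938 genes (58.2%), but 3 against 2 libraries separate more easily than 3 against 3, so the shares are not comparable. The same count was not made without any of the other libraries. Leaving out each of the other libraries in turn gave 1100 to 1232 genes past the criteria and 311 to 463 under 0.05 after adjustment. Taking the 958 genes higher in *aadd* than in replicates 2 and 3 (adjusted *P* under 0.05 and at least 2-fold, 9.4% of genes tested), replicate 1 was at least 2-fold lower than the *aadd* mean for 370 (38.6%), within 2-fold for 579 (60.4%) and at least 2-fold higher for 9. Of the 872 genes (8.55%) lower in *aadd* by the same rule, replicate 1 was at least 2-fold above the *aadd* mean for 337 (38.6%), within 2-fold for 510 (58.5%) and at least 2-fold below it for 25. The plot of replicate 1 against replicates 2 and 3 shows this by gene group.

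**Figure D1:**
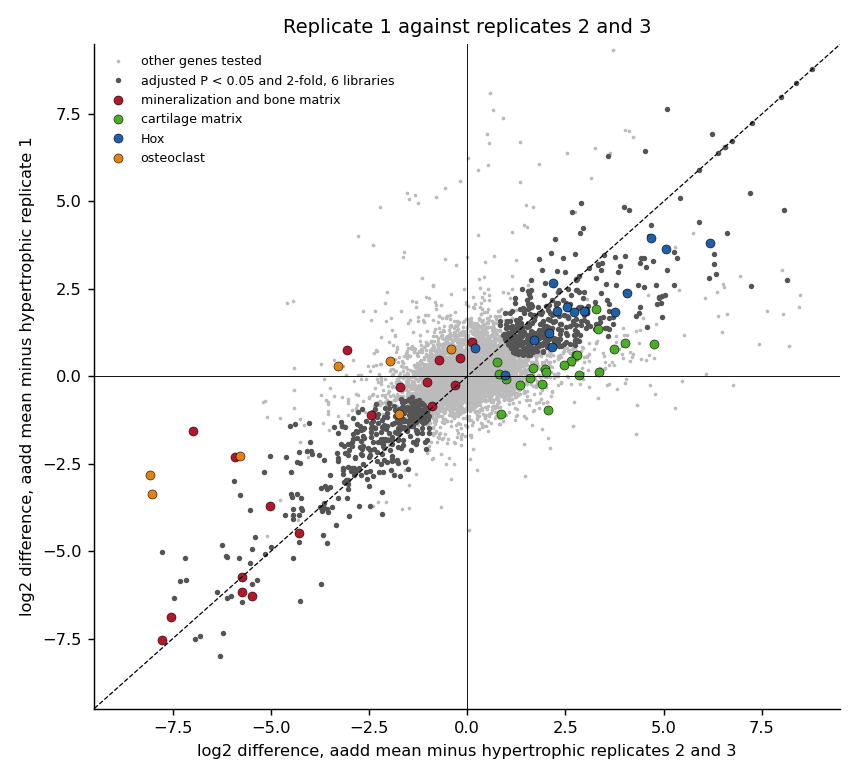
Each point is 1 gene tested, with the log2 difference of the *aadd* mean from hypertrophic replicates 2 and 3 on the horizontal axis and from hypertrophic replicate 1 on the vertical axis, and the dashed line marks equal differences. *Alpl* lies close to the line at -7.76 and -7.54, while *Mmp9* lies far from it at -8.07 and -2.81, and most cartilage genes lie to the right of 0 horizontally with values near 0 vertically.

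Many genes of hypertrophic maturation and mineralization were high in all 3 hypertrophic libraries, though the mineralization list as a whole was lower in replicate 1. Of 21 genes on a list for hypertrophic chondrocytes, 19 were tested. The filter fixed the direction of 5 of them, *Col10a1* and *Panx3* included, which passed it only through the hypertrophic libraries. For these 5 the direction, the lack of overlap and *P* are no support for a difference, and the counts that follow include them. Of the 19, 12 passed the criteria as higher in hypertrophic, against 5.87% of all genes tested, and 1, *Foxa3*, as higher in *aadd*, against 6.89%. *Foxa3* did so only while every library other than hypertrophic replicate 1 was kept. The median log2 difference of the 19, with those 5 included, was -2.37, against 0.00213 over all genes tested. The summed level of the list was 376 to 421 NRPKM in *aadd* and 1880, 2000 and 2040 NRPKM in hypertrophic replicates 1, 2 and 3, so that replicate 1 resembled the other 2 here. Fewer cells of a type and less RNA per cell cannot be told apart in such bulk samples.

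*Col10a1* (on chr10:34389981-34397085 of mm10, overlapping *Nt5dc1*) encodes type X collagen, the defining matrix protein of hypertrophic cartilage. It was listed at 3.93, 4.39 and 4.38 NRPKM in *aadd* replicates 1, 2 and 3 and at 264, 166 and 221 in hypertrophic replicates 1, 2 and 3, which is the order used below. The *aadd* libraries were low and close to each other, and all hypertrophic libraries were high. The log2 difference was -5.62 (standard error 0.22, adjusted *P* of 5.6e-05), or 49.2-fold higher in hypertrophic. *Panx3* (chr9:37659902-37669222), a channel protein of maturing chondrocytes, was at 0.856, 1.45 and 4.39 NRPKM in *aadd* and 344, 235 and 221 in hypertrophic, with no overlap and a log2 difference of -7.12 (adjusted *P* of 0.0012). The WT proliferative mean for *Panx3* was 243 NRPKM and the WT resting mean 11.4.

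Transcription factor genes of this program were low in *aadd* as well. *Runx2* (chr17:44604001-44814797), which drives hypertrophy and bone formation, was at 18.1, 31.3 and 23.5 NRPKM in *aadd* and 135, 102 and 115 in hypertrophic libraries, so that it was expressed in both and 4.9-fold higher in hypertrophic (log2 difference -2.29, adjusted *P* of 0.0038). *Sp7*, required for osteoblast formation, differed far more, with 2.55, 6.07 and 3.03 NRPKM in *aadd* against 126, 112 and 154 in hypertrophic (log2 difference -5.12, adjusted *P* of 0.00069). *Mef2c* (log2 difference -2.71), *Dlx5* (-2.63) and *Dlx6* (-3.66, overlapping the antisense row *Dlx6os1*), further maturation factors, were also lower in *aadd*, with adjusted *P* of 0.0016, 0.0028 and 0.018. *Runx3* was at 4.79, 4.64 and 5.59 NRPKM in *aadd* and 70.6, 14.2 and 18.1 in hypertrophic, with no overlap, an adjusted *P* of 0.052 with all libraries and 0.0018 without replicate 1.

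Genes of mineralization included the most negative difference of all genes named by size. Of 21 genes for mineralization and bone matrix, 18 were tested and 11 passed the criteria as higher in hypertrophic, against 5.87% of all genes tested. None passed as higher in *aadd*, and the median log2 difference of the 18 was -3.17. The 21 genes summed to 745 to 1340 NRPKM in *aadd*, 2610 in replicate 1 and 4780 and 6280 in replicates 2 and 3. Their median log2 difference was -1.56 against replicate 1, -3.98 against replicate 2 and -4.6 against replicate 3. The filter fixed the direction of 6 of the 18, *Alpl*, *Smpd3*, *Phospho1* and *Dmp1* included, which passed it only through hypertrophic libraries. For these 6 the direction, the lack of overlap and *P* are no support for a difference, and the counts above include them. *Ibsp* (chr5:104299287-104311472), whose upstream sequence is given above, encodes bone sialoprotein, which binds hydroxyapatite. It was at 4.96, 7.57 and 5.61 NRPKM in *aadd* and 718, 968 and 1331 in hypertrophic, far above *aadd* in every library, with a log2 difference of -7.33 (standard error 0.28, adjusted *P* of 5.6e-05). *Alpl* (chr4:137741732-137796377), tissue-nonspecific alkaline phosphatase, which breaks down the mineral inhibitor pyrophosphate, was at 0.285, 1.45 and 0.358 NRPKM in *aadd* and 121, 122 and 162 in hypertrophic with a log2 difference of -7.69 (adjusted *P* of 0.00069). All 3 hypertrophic libraries were within a narrow band for *Alpl*, and replicate 1 did not stand apart.

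Phosphate for mineral is released inside matrix vesicles by *Smpd3* and *Phospho1*. *Smpd3* was at 2.11, 3.28 and 1.25 NRPKM in *aadd* against 168, 84.1 and 108 in hypertrophic (log2 difference -5.74, adjusted *P* of 0.00077), although it overlaps the row *Gm10629*. *Phospho1* was listed at 0, 0.30 and 0 NRPKM in *aadd* and 11.3, 7.09 and 9.89 in hypertrophic (adjusted *P* of 0.0023), and its log2 difference of -5.88 depends on the 0.1 added. *Ifitm5*, a membrane protein of mineralizing cells, was at 8.27, 16.7 and 9.07 NRPKM in *aadd* against 240.2, 171 and 263 in hypertrophic (log2 difference -4.34, adjusted *P* of 0.0011). *Slc13a5*, a citrate transporter, was at 0.662, 0.457 and 0.644 NRPKM in *aadd* against 118, 60.5 and 94.3 in hypertrophic (log2 difference -7.01, adjusted *P* of 6.3e-05). The phosphate transporter genes *Slc20a1* and *Slc20a2* and the pyrophosphate enzyme gene *Enpp1* overlapped between the groups and did not pass.

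Among genes named by size of difference alone, *Bmp8a*, a bone morphogenetic protein, was at 0.15, 0 and 0 NRPKM in *aadd* and 10.8, 21.8 and 26 in hypertrophic (adjusted *P* of 0.00069). *Ostn*, the secreted peptide osteocrin, was at 0, 0.359 and 0 NRPKM in *aadd* and 26.6, 8.88 and 17.1 in hypertrophic (adjusted *P* of 0.0032). *Pltp*, a phospholipid transfer protein, was at 0.209, 0.279 and 0.254 NRPKM in *aadd* and 87.9, 23.7 and 30.9 in hypertrophic, with replicate 1 the highest (adjusted *P* of 0.00073). *Car3*, a carbonic anhydrase, was at 0, 0.346 and 0 NRPKM in *aadd* and 5.21, 37.9 and 33.6 in hypertrophic, with replicate 1 the lowest of the hypertrophic libraries (adjusted *P* of 0.0069). *Gpr133*, an adhesion receptor, and *Dapk2*, a death-associated kinase, were at 13.6 to 50.5 and 7.01 to 20.4 NRPKM in hypertrophic and under 1 NRPKM in *aadd* (adjusted *P* of 0.0042 and 0.00045). All of these were low in every *aadd* library, and folds for genes of a few reads in *aadd* are not given.

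**Figure D2:**
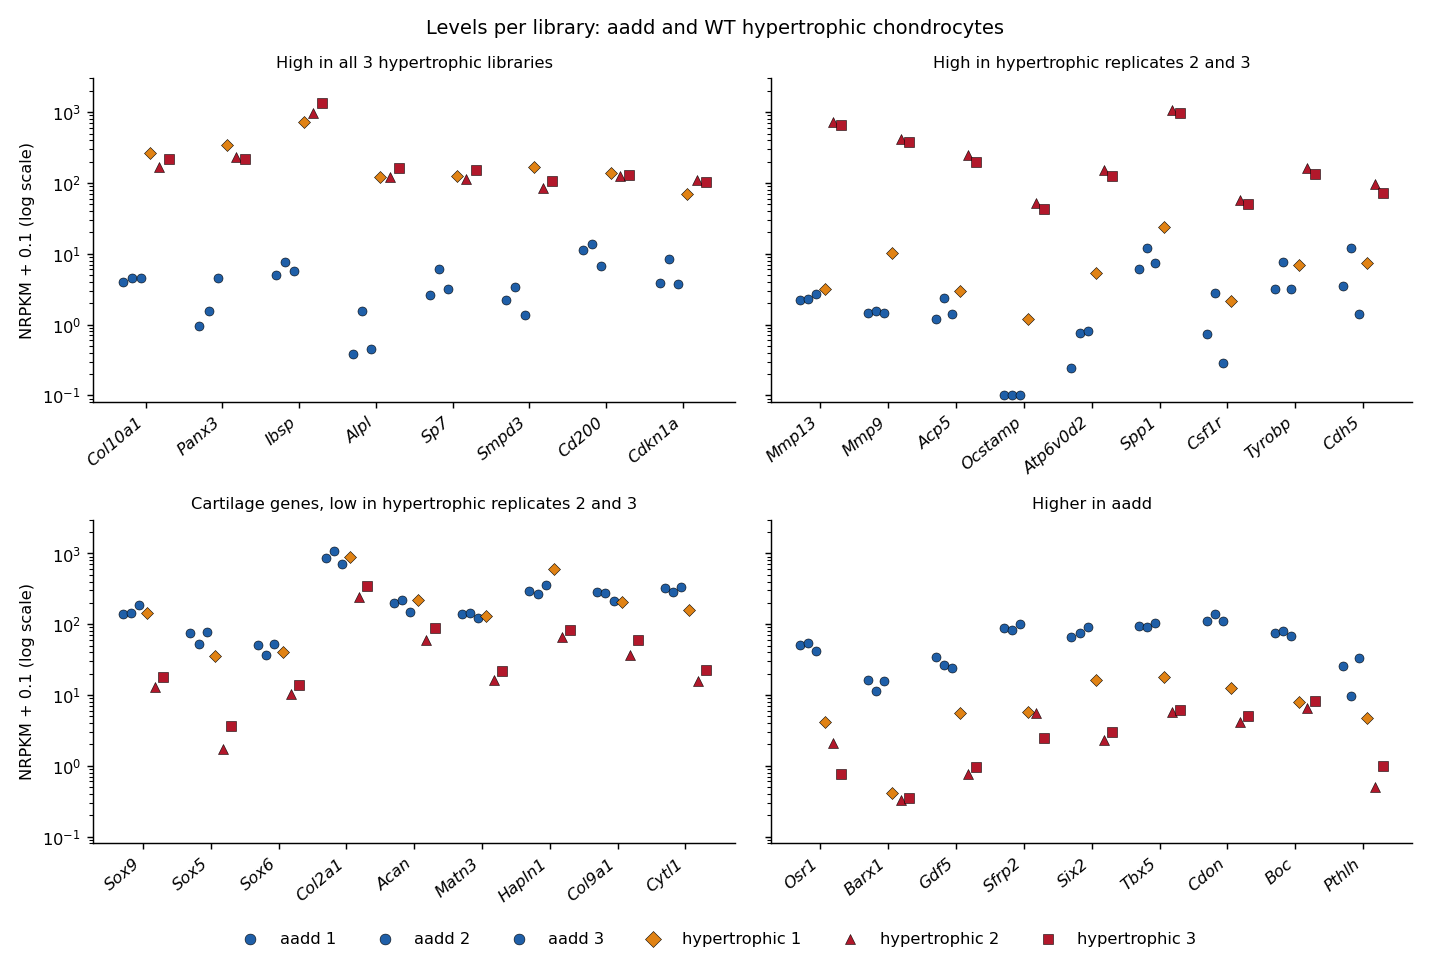
Levels of single genes in each library as NRPKM + 0.1 on a log axis, with the 3 *aadd* libraries as circles and hypertrophic replicates 1, 2 and 3 as diamonds, triangles and squares. *Col10a1* to *Cdkn1a* are high in all 3 hypertrophic libraries, *Mmp13* to *Cdh5* are highest in replicates 2 and 3, *Sox9* to *Cytl1* are lowest in replicates 2 and 3, and the last panel shows genes higher in *aadd*.

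A second group of genes was high in hypertrophic replicates 2 and 3 and far lower in replicate 1. *Mmp13* (chr9:7272514-7283333), the collagenase of late hypertrophic chondrocytes and osteoblasts, was at 2.13, 2.18 and 2.64 NRPKM in *aadd*, 3.05 in replicate 1 and 735 and 661 in replicates 2 and 3. It reached 5 NRPKM in 2 libraries only and was not among the genes tested, 1 of 452 rows left out that reached the limit in replicates 2 and 3 alone. When replicate 1 was left out and 5 NRPKM in 2 of the 5 remaining libraries was asked for, a setting chosen after seeing the data, the log2 difference of *Mmp13* was -8.18 (adjusted *P* of 2.5e-05). That setting admitted *Mmp13* only through hypertrophic replicates 2 and 3, which fixed its direction, so this *P* is no support for a difference. *Spp1*, osteopontin, was at 6.08, 11.8 and 7.39 NRPKM in *aadd*, 24.1 in replicate 1 and 1083 and 979 in replicates 2 and 3 (adjusted *P* of 0.071, and 4.7e-05 without replicate 1). *Dmp1*, a mineral-binding matrix protein, was at 2.6, 2.8 and 1.91 NRPKM in *aadd* and 12.2, 134 and 171 in hypertrophic (adjusted *P* of 0.029), with replicate 1 between the *aadd* libraries and the others.

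Osteoclast genes moved with this group. Osteoclasts resorb mineralized cartilage at its border with bone. *Mmp9*, the gelatinase they secrete, was at 1.37, 1.45 and 1.33 NRPKM in *aadd*, 10.3 in replicate 1 and 422 and 378 in replicates 2 and 3 (log2 difference -6.32, adjusted *P* of 0.035). *Atp6v0d2*, an osteoclast subunit of the vacuolar proton pump, was at 0.143, 0.654 and 0.698 NRPKM in *aadd* and 5.3, 151 and 126 in hypertrophic (adjusted *P* of 0.027). *Ctsk*, cathepsin K, was at 1.21, 10.2 and 2.62 NRPKM in *aadd* and 15.9, 300.1 and 111 in hypertrophic (adjusted *P* of 0.059). The fusion genes *Ocstamp* and *Dcstamp* were listed at 0 in all 3 *aadd* libraries, whereas *Ocstamp* was at 1.09, 51.2 and 42.6 NRPKM and *Dcstamp* at 0.773, 31.6 and 23.9 NRPKM in hypertrophic. The summed level of 15 osteoclast genes was 56.2 to 84.3 NRPKM in *aadd*, 89.2 in replicate 1 and 1530 and 1150 in replicates 2 and 3, against 61.1 to 90.1 in the 6 libraries of the other WT compartments.

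Only 7 of the 15 osteoclast genes were tested with all 6 libraries, and 4 passed as higher in hypertrophic, against 5.87% of all genes tested. The filter fixed the direction of 2 of the 7, which passed it only through hypertrophic. With replicate 1 left out and the lower filter, 13 of 14 passed (12.1% of 10970 genes), but 9 of the 14 were admitted only through hypertrophic replicates 2 and 3, which fixed their direction. In that setting 15 of 17 endothelial genes and 7 of 8 macrophage genes also passed as higher in hypertrophic, with 11 of the 17 and 3 of the 8 admitted in that way. These counts describe the libraries and are no support for a difference. *Cdh5*, the vessel cadherin, was at 3.39, 12 and 1.33 NRPKM in *aadd*, 7.3 in replicate 1 and 96.5 and 72.5 in replicates 2 and 3, and *aadd* replicate 2 was the highest of its group and above replicate 1. Over 18 endothelial genes the sums were 65.4 to 117 NRPKM in *aadd*, 84.6 in replicate 1 and 483 and 338 in replicates 2 and 3. Over 14 macrophage genes they were 23.6 to 78.5 NRPKM in *aadd*, 46.3 in replicate 1 and 645 and 512 in replicates 2 and 3. Genes of red cells summed to 127 to 257 NRPKM in *aadd*, 207 in replicate 1 and 542 and 586 in replicates 2 and 3. The part of these other cell types in the differences was not tested.

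Members of the same lists did not all behave alike. The 4 macrophage genes tested were *Tyrobp*, *Cd68*, *Fcer1g* and *Laptm5*, which osteoclasts also express, while *Mrc1*, *C1qb* and *Cx3cr1* were at most 6.1 NRPKM in hypertrophic and reached 6.71, 10.6 and 4.51 NRPKM in *aadd* replicate 2. *Flt4*, a receptor of lymphatic and other endothelium, was at 0.492, 1.92 and 0.975 NRPKM in *aadd* and 16.7, 23.7 and 18.8 in hypertrophic, and here replicate 1 was near replicates 2 and 3 (log2 difference -4.17, adjusted *P* of 0.0033). Of 20 genes for the vacuolar proton pump and cathepsins, 9 passed as higher in hypertrophic, against 5.87% of all genes tested, and none as higher in *aadd*. The filter fixed the direction of 1 of them, *Atp6v0d2*. These 20 genes summed to 552 to 567 NRPKM in *aadd*, 678 in replicate 1 and 2040 and 1560 in replicates 2 and 3. Skeletal muscle genes summed to 14.1 to 47.4 NRPKM in *aadd* and 20.1 to 31.1 in hypertrophic, with none of 2 tested past the criteria.

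Cartilage genes showed the reverse arrangement. *Sox9* (chr11:112782210-112787757), the master regulator of chondrocytes, was at 141, 145 and 186 NRPKM in *aadd*, 143 in replicate 1 and 12.9 and 17.6 in replicates 2 and 3. Replicate 1 lay inside the *aadd* range and the other 2 libraries were far lower. With all libraries the log2 difference was 2.28 with an adjusted *P* of 0.15, and the gene no longer met the criteria when any library other than hypertrophic replicate 1 was left out, with values down to 1.63. Without replicate 1 it was 3.36 (adjusted *P* of 0.00025). *Sox5*, its partner, was at 75.4, 52.3 and 77.5 NRPKM in *aadd*, 35.3 in replicate 1 and 1.61 and 3.51 in replicates 2 and 3, so that replicate 1 was below the *aadd* libraries yet far above the others (adjusted *P* of 0.087, and 0.00031 without replicate 1).

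All 23 cartilage matrix genes found in the table were tested and 14 passed the criteria as higher in *aadd*, against 6.89% of all genes tested. However, only *Matn4* and *Ucma* had an adjusted *P* under 0.05, and *Ucma* passed the filter only through *aadd*, which fixed its direction. Without replicate 1, 18 passed and 19 had an adjusted *P* under 0.05, where 13.9% of genes tested did in that direction. The median log2 difference over the list was 0.214 against replicate 1, 2.26 against replicate 2 and 1.91 against replicate 3. *Col2a1*, type II collagen, was at 861, 1074 and 720.3 NRPKM in *aadd* and 898, 245 and 343 in hypertrophic (adjusted *P* of 0.22, and 0.0052 without replicate 1). *Hapln1*, which links aggrecan to hyaluronan, was at 298, 271 and 357 NRPKM in *aadd*, higher at 595 in replicate 1 and lower at 66.6 and 81.5 in replicates 2 and 3. *Cytl1*, a cytokine-like protein of cartilage, was at 321, 283 and 331 NRPKM in *aadd* and 159, 15.8 and 22.7 in hypertrophic, with all hypertrophic libraries below *aadd* (log2 difference 3.01, adjusted *P* of 0.068). *Ucma*, a matrix protein of resting cartilage, was at 9.18, 19.6 and 12.3 NRPKM in *aadd*, 3.39, 1.05 and 1.52 in hypertrophic and 104 in the WT resting mean (log2 difference 2.81, adjusted *P* of 0.014).

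**Figure D3:**
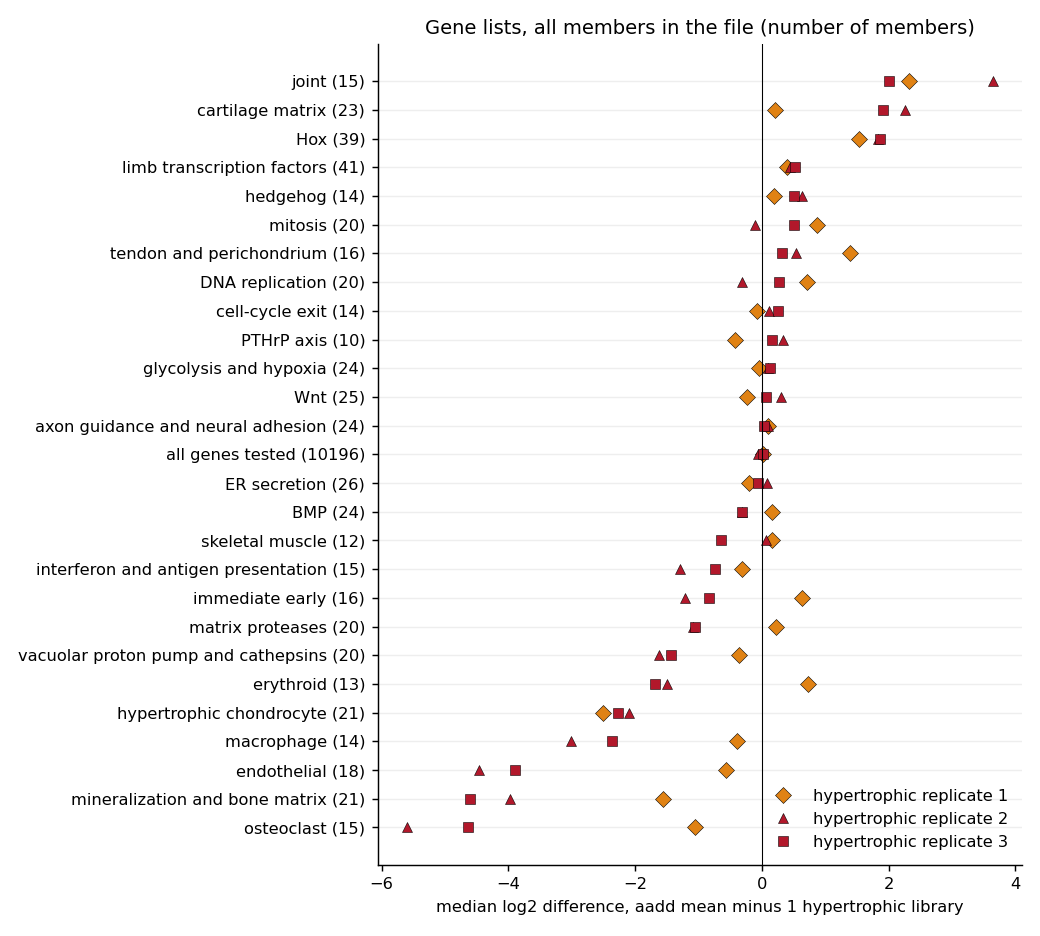
Median log2 difference of the *aadd* mean from each hypertrophic library for the members of each gene list (number of members in parentheses), with replicate 1 as diamonds and replicates 2 and 3 as triangles and squares. The 3 libraries lie together for hypertrophic chondrocyte and Hox genes. Replicate 1 lies nearer 0 for the mineralization and bone matrix, osteoclast, endothelial, macrophage and cartilage matrix lists.

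Many Hox genes were higher in *aadd* across both mutated clusters and beyond. Of 39 Hox genes, 16 were tested, and 10 of them passed the filter only through the *aadd* libraries. As higher in *aadd* 14 passed, against 6.89% of all genes tested, all with an adjusted *P* under 0.05. None was higher in hypertrophic. The median log2 difference of the 16 was 2.39. All 14 had no overlap between the groups (16.8% of genes tested in that direction). The filter itself fixed the direction and the lack of overlap for the 10 that passed only through *aadd*. Nothing is therefore read from these counts or from the median. The summed Hox level was 335 to 363 NRPKM in *aadd*, 86.9 in replicate 1 and 61.8 and 55.1 in replicates 2 and 3, so that this difference did not hang on which hypertrophic library was used.

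The mutated genes were examined in every library. The frameshift need not remove the transcript, and all 6 were detected in *aadd*. *Hoxd11* (chr2:74682393-74684138) was at 25.1, 30.0 and 35.4 NRPKM in *aadd* and 2.02, 0.275 and 0.352 in hypertrophic (log2 difference 5.4, standard error 0.63, adjusted *P* of 0.0047). *Hoxd10* (chr2:74691948-74695102) was at 47.3, 39.6 and 52.1 NRPKM in *aadd* and 2.87, 1.21 and 2.37 in hypertrophic (log2 difference 4.44, adjusted *P* of 0.0011). *Hoxd9* was at 22.5, 23.1 and 29.6 NRPKM in *aadd* and 4.69, 1.18 and 1.62 in hypertrophic (log2 difference 3.51, adjusted *P* of 0.0076). These 3 genes passed the filter only through *aadd*, which fixed their direction. For these 3 genes the WT resting means were 5.82, 15.9 and 6.85 NRPKM, between both groups compared here.

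The mutated genes of the A cluster differed less. *Hoxa9* was at 15.2, 19.7 and 17.1 NRPKM in *aadd* and 8.38, 6.32 and 4.26 in hypertrophic, with no overlap (log2 difference 1.48, adjusted *P* of 0.022). *Hoxa10* was at 12.2, 6.93 and 15.9 NRPKM in *aadd* and 10.7, 6.51 and 4.9 in hypertrophic, where replicate 1 lay inside the *aadd* range (log2 difference 0.65, adjusted *P* of 0.35). *Hoxa11*, which overlaps the antisense row *Hoxa11os*, was at 11.1, 5.17 and 10.0 NRPKM in *aadd* and 4.67, 7.68 and 6.74 in hypertrophic with overlapping libraries (log2 difference 0.41, adjusted *P* of 0.48). The use of strand in counting is not given in the sources used here, so reads of *Hoxa11* and *Hoxa11os* cannot be told apart.

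Hox genes that were not mutated were higher too, though *Hoxd13* and *Hoxc6* passed the filter only through *aadd*, which fixed their direction. *Hoxd13*, which patterns the digits, was at 20.8, 17.6 and 31.2 NRPKM in *aadd* and 1.7, 1.12 and 0.271 in hypertrophic (log2 difference 4.6, adjusted *P* of 0.0058), and its WT resting and proliferative means were 0.409 and 0.779 NRPKM. *Hoxa13* was at 2.72, 3.47 and 5.09 NRPKM in *aadd* and listed at 0 in all 3 hypertrophic libraries. *Hoxd12* was at 4.71, 7.21 and 6.38 NRPKM in *aadd* and 0.68, 0 and 0.133 in hypertrophic, and neither it nor *Hoxa13* entered the genes tested. *Hoxd8* (33.9, 26.1 and 34.4 NRPKM in *aadd* against 8.51, 4.55 and 3.32 in hypertrophic) and *Hoxc6* (15.7, 14.7 and 11.7 NRPKM in *aadd* against 3.8, 0.539 and 1.58 in hypertrophic) belong to earlier positions in their clusters and passed with adjusted *P* of 0.0073 and 0.026. *Hoxa5*, which overlaps *Hoxa3*, was nearly equal in the *aadd* libraries, at 28, 28.2 and 28.3 NRPKM in *aadd* and 7.65, 3.78 and 3.12 in hypertrophic (adjusted *P* of 0.006).

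**Figure D4:**
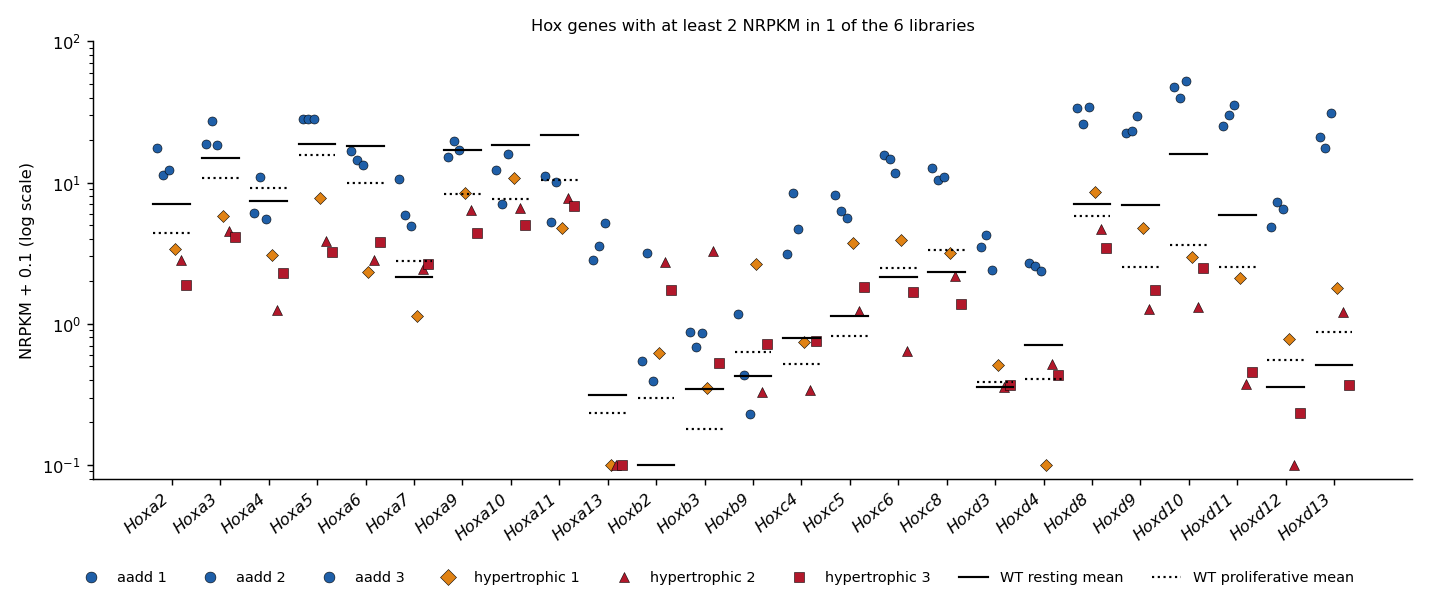
Hox genes with at least 2 NRPKM in 1 of the 6 libraries, as NRPKM + 0.1 on a log axis, with *aadd* libraries as circles, hypertrophic replicates 1, 2 and 3 as diamonds, triangles and squares, and bars for the WT resting (solid) and WT proliferative (dotted) means. *Hoxd8* to *Hoxd13* show every *aadd* library above every hypertrophic library, while *Hoxa10* and *Hoxa11* overlap.

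Several other limb patterning and joint genes were higher in *aadd*. Of 41 limb transcription factor genes, 23 were tested (7 passed the filter only through *aadd* and 2 only through hypertrophic, which fixed their direction). As higher in *aadd* 12 passed, against 6.89% of all genes tested, and as higher in hypertrophic 4, against 5.87%. The median log2 difference of the 23 was 1.5. *Osr1*, an odd-skipped factor of joint and connective tissue precursors, was at 50.7, 54.1 and 41.3 NRPKM in *aadd* and 4.04, 1.98 and 0.668 in hypertrophic (log2 difference 4.69, adjusted *P* of 0.0052). *Six2*, a homeobox gene of limb mesenchyme, was at 66.7, 74.6 and 92.6 NRPKM in *aadd* and 16.2, 2.23 and 2.87 in hypertrophic (log2 difference 4.0, adjusted *P* of 0.018). *Tbx5*, which specifies the forelimb, was at 93.3, 90.9 and 104 NRPKM in *aadd* and 17.9, 5.6 and 6.0 in hypertrophic (log2 difference 3.49, adjusted *P* of 0.006). In all 3 the hypertrophic libraries were low, with replicate 1 the highest of them.

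Limb factors higher in hypertrophic included *Irx5*, an Iroquois homeobox gene, at 0, 1.32 and 0 NRPKM in *aadd* and 19.6, 16.4 and 16.9 in hypertrophic (adjusted *P* of 0.013). *Shox2*, which promotes chondrocyte maturation in the limb, was at 3.33, 4.56 and 5.24 NRPKM in *aadd* and 30.8, 16.3 and 15.47 in hypertrophic (log2 difference -2.18, adjusted *P* of 0.01), and its WT resting and proliferative means were higher still, 52.7 and 69.97 NRPKM. The other 2 were *Tbx2* (log2 difference -4.07, adjusted *P* of 0.0067) and *Twist1* (log2 difference -1.01, adjusted *P* of 0.14). Without *aadd* replicate 1 or hypertrophic replicate 2 or 3, *Twist1* no longer met the criteria.

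Of 15 joint genes, 12 were tested (5 passed the filter only through *aadd*, which fixed their direction). As higher in *aadd* 7 passed, against 6.89% of all genes tested, and as higher in hypertrophic 3, against 5.87%. The median log2 difference of the 12 was 3.53. *Gdf5*, a growth factor of the forming joint, was at 34.5, 26.4 and 24.4 NRPKM in *aadd*, 5.54 in replicate 1 and 0.667 and 0.87 in replicates 2 and 3 (log2 difference 4.13, adjusted *P* of 0.018). *Barx1*, a homeobox gene of joint and limb mesenchyme, was at 16, 11.4 and 15.8 NRPKM in *aadd* and 0.315, 0.227 and 0.247 in hypertrophic (adjusted *P* of 5.8e-05). *Sfrp2*, a secreted Wnt modulator, was at 89.1, 83.3 and 99.9 NRPKM in *aadd* and 5.56, 5.4 and 2.35 in hypertrophic (log2 difference 4.42, adjusted *P* of 0.0012). *Prg4*, the lubricin of mature joint surfaces, was at 3.38, 2.92 and 1.55 NRPKM in *aadd* and 2.36, 1.94 and 1.3 in hypertrophic and was not tested. *Col22a1*, a collagen of tissue junctions, went the other way, at 1.63, 5.04 and 0.845 NRPKM in *aadd* and 11, 31.1 and 53.6 in hypertrophic (adjusted *P* of 0.032).

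A list of 30 genes that the study names in its account of the *aadd* mutant is not independent evidence of direction. Most were picked by the study on these *aadd* libraries, compared with WT resting cells and not with hypertrophic cells. It also holds genes that the study reports as unchanged or not raised in *aadd*, such as *Sox9*, *Runx2* and *Osr2*. All 30 were tested (9 passed the filter only through *aadd* and 1 only through hypertrophic, which fixed their direction). As higher in *aadd* 18 passed, against 6.89% of all genes tested, and as higher in hypertrophic 5, against 5.87%. *Gas2*, a cytoskeletal protein, was at 39.5, 36.5 and 37.7 NRPKM in *aadd* and 4.18, 2.44 and 2.5 in hypertrophic (log2 difference 3.64, adjusted *P* of 0.00069). *Dcx*, a microtubule protein found in joint precursors, was at 31.7, 20.2 and 29.7 NRPKM in *aadd* and 2.45, 0.541 and 0.588 in hypertrophic (log2 difference 4.69, adjusted *P* of 0.0045). *Igf1*, the growth factor, was at 21, 54.6 and 37.3 NRPKM in *aadd* and 6.26, 4.61 and 5.37 in hypertrophic (log2 difference 2.68, adjusted *P* of 0.0069). *Sulf1*, a heparan sulfatase, was at 67, 57.1 and 60.2 NRPKM in *aadd*, 6.61 in replicate 1 and 65.1 and 87.3 in replicates 2 and 3, and here replicate 1 alone was low.

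In the hedgehog pathway the ligand and the co-receptors went in opposite directions. *Ihh* (chr1:74945318-74951651), the ligand made by prehypertrophic cells, was at 1.31, 0.602 and 0.693 NRPKM in *aadd* and 56.3, 9.54 and 15.3 in hypertrophic, with replicate 1 the highest (log2 difference -4.46, adjusted *P* of 0.0096). The WT proliferative mean was 29.2 NRPKM. *Ptch1*, the receptor and itself a target of the pathway, was at 49.6, 42.3 and 54 NRPKM in *aadd* and 171, 90.3 and 108 in hypertrophic (log2 difference -1.29, adjusted *P* of 0.033). The co-receptor genes were higher in *aadd*. *Cdon* was at 113, 141 and 111 NRPKM in *aadd* against 12.3, 4.05 and 4.93 in hypertrophic (log2 difference 4.25, adjusted *P* of 0.0027), *Boc* had a log2 difference of 3.29 (adjusted *P* of 0.00027) and *Gas1* of 3.59 (adjusted *P* of 0.012).

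Of the factors that carry the hedgehog signal, *Gli3* (log2 difference 1.42, adjusted *P* of 0.011) and *Gli2* (1.02, adjusted *P* of 0.023) were higher in *aadd*, though *Gli2* fell short of 2-fold without *aadd* replicate 1 or hypertrophic replicate 2. *Gli1*, a target as well, was at 13.9, 13.9 and 14 NRPKM in *aadd* and 22.3, 9.57 and 10.2 in hypertrophic and overlapped. In all, 13 of 14 genes of the list were tested (*Ihh* passed the filter only through hypertrophic, which fixed its direction). As higher in *aadd* 6 passed and as higher in hypertrophic 2, against 6.89% and 5.87% of all genes tested. On the PTHrP side, *Pthlh*, the ligand, was at 25.4, 9.44 and 33 NRPKM in *aadd* and 4.66, 0.408 and 0.888 in hypertrophic (log2 difference 3.9, adjusted *P* of 0.038). *Pth1r*, its receptor, was at 8.87, 15.2 and 13.1 NRPKM in *aadd* and 158, 73.1 and 91 in hypertrophic (log2 difference -3.06, adjusted *P* of 0.0042). *Zfp521*, a nuclear effector that restrains RUNX2, was at 81.4, 87.7 and 69.8 NRPKM in *aadd* and 25.3, 24.4 and 24.2 in hypertrophic (log2 difference 1.68, adjusted *P* of 0.003). Of the 10 genes of this axis 9 were tested (*Pthlh* passed the filter only through *aadd*, which fixed its direction). In each direction 2 passed, counts too small to set against the shares of all genes tested (6.89% and 5.87%).

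Wnt genes split. Of 25, 18 were tested. Of these, 1 passed the filter only through *aadd* and 3, *Tcf7* and *Lef1* included, only through hypertrophic, which fixed their direction. As higher in hypertrophic 6 passed and as higher in *aadd* 4, against 5.87% and 6.89% of all genes tested. The ligand genes *Wnt5a* (log2 difference -1.86, adjusted *P* of 0.017) and *Wnt4* (-1.18, adjusted *P* of 0.026) were higher in hypertrophic, *Wnt4* at -0.97 and so under 2-fold without replicate 1. The nuclear factor genes *Tcf7* and *Lef1* were higher in hypertrophic too, *Tcf7* at 0.836, 2.54 and 2.65 NRPKM in *aadd* against 68.4, 35.7 and 46.2 in hypertrophic (adjusted *P* of 0.0028) and *Lef1* at 2.12, 1.79 and 2.31 against 9.12, 5.2 and 6.3 (adjusted *P* of 0.011). The inhibitor gene *Dkk1* was higher in hypertrophic, 5.78, 9.76 and 6.41 NRPKM in *aadd* against 50.8, 38.2 and 57.6 in hypertrophic (adjusted *P* of 0.0028), and the related *Dkk3* was higher in *aadd*, 65.3, 90.5 and 55.9 NRPKM in *aadd* against 8.47, 14.5 and 13.7 in hypertrophic (adjusted *P* of 0.0043). *Axin2*, a common target, was at 6.96, 8.66 and 8.01 NRPKM in *aadd* and 16.1, 3.56 and 3.85 in hypertrophic and overlapped.

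Of 24 BMP genes, 21 were tested (2, *Bmpr1b* and *Grem1*, passed the filter only through *aadd*, which fixed their direction). As higher in hypertrophic 4 passed and as higher in *aadd* 6, against 5.87% and 6.89% of all genes tested. The receptor gene *Bmpr1b*, through which GDF5 acts, was at 28.5, 15.9 and 38.8 NRPKM in *aadd* and 4.18, 1.34 and 1.04 in hypertrophic (log2 difference 3.76, adjusted *P* of 0.01). *Grem1*, an extracellular antagonist, was at 6.36, 6.38 and 11.4 NRPKM in *aadd* and 0, 1.32 and 0.205 in hypertrophic (adjusted *P* of 0.028). The ligand genes *Bmp4* and *Bmp7* met the criteria as higher in hypertrophic with adjusted *P* of 0.15 and 0.089, and neither did so without replicate 1, which was their highest library. *Bmp4* was also lost without *aadd* replicate 1 or 3 or hypertrophic replicate 3, and *Bmp7* without *aadd* replicate 2.

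Guidance genes, active in vessels and nerves, were divided as well. Of 18 tested, 5 were higher in hypertrophic and 6 in *aadd*, against 5.87% and 6.89% of all genes tested. The filter fixed the direction of 2, *Unc5b* included, which passed it only through hypertrophic. *Unc5b*, a netrin receptor, was at 3.12, 4.8 and 2.53 NRPKM in *aadd* and 38.7, 61.2 and 68.3 in hypertrophic (log2 difference -3.98, adjusted *P* of 0.0012). *Nrp2*, a semaphorin co-receptor, was at 16.7, 18.4 and 17.6 NRPKM in *aadd* and 62, 70.05 and 74.9 in hypertrophic (log2 difference -1.96, adjusted *P* of 0.0016). *Sema3c*, a secreted semaphorin, was at 21.9, 28.8 and 33.2 NRPKM in *aadd* and 7.41, 1.65 and 2.81 in hypertrophic (log2 difference 3.04, adjusted *P* of 0.016).

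Genes of cell division did not pass in either direction. None of 20 DNA replication genes and none of 19 mitosis genes tested met the criteria, and their median log2 differences were 0.194 and 0.436. The median for DNA replication was -0.03 without hypertrophic replicate 1. The summed level of the mitosis genes was 667, 545 and 674 NRPKM in *aadd* and 336, 632 and 430 in hypertrophic, with replicate 1 the lowest. *Mki67*, a marker of cycling cells, was at 94.8, 85.2 and 91.5 NRPKM in *aadd* and 52.1, 75.9 and 60.5 in hypertrophic (adjusted *P* of 0.15), and so was not near 0 in either. Among 13 cell-cycle exit genes, 3 were higher in hypertrophic, against 5.87% of all genes tested. The filter fixed the direction of 1 that passed it only through *aadd* and 1 only through hypertrophic. The inhibitor gene *Cdkn1a* was at 3.75, 8.43 and 3.63 NRPKM in *aadd* and 68.7, 111 and 102 in hypertrophic (log2 difference -4.22, adjusted *P* of 0.0018), *Gadd45g* had a log2 difference of -3.45 (adjusted *P* of 0.005) and *Rb1* of -1.34 (adjusted *P* of 0.042). *Cdkn1c*, another inhibitor, was at 246, 174 and 228 NRPKM in *aadd* and 285, 67.8 and 92.3 in hypertrophic, with replicate 1 the highest, and did not pass.

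Among metabolic, secretory and stress genes the shares past the criteria are to be read against the 12.8% of all genes tested. Of 21 glycolysis and hypoxia genes tested, *Epas1* alone met the criteria, at 9.83, 17.1 and 11.6 NRPKM in *aadd* and 18.9, 45 and 37 in hypertrophic (adjusted *P* of 0.077). All 26 genes for secretion through the endoplasmic reticulum were tested and 2 met them. *Creb3l1*, a stress-activated factor of bone matrix secretion, was at 15.4, 47.2 and 24.5 NRPKM in *aadd* and 159, 159.7 and 193 in hypertrophic (log2 difference -2.7, adjusted *P* of 0.0099). Its relative *Creb3l2*, used by chondrocytes, was at 154, 129 and 139 NRPKM in *aadd* and 91.3, 45.7 and 50.03 in hypertrophic (log2 difference 1.24, adjusted *P* of 0.047). Of 9 immediate early genes tested *Zfp36* alone met the criteria, and of 6 interferon and antigen presentation genes *H2-K1* alone, both as higher in hypertrophic with adjusted *P* of 0.12 and 0.051. *Zfp36* did not meet them without *aadd* replicate 1 or 3 or hypertrophic replicate 2 or 3.

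Tendon and perichondrium genes, which bear on how much flanking tissue was captured, summed to 857, 1420 and 823 NRPKM in *aadd* and 535, 808 and 955 in hypertrophic. Of 11 tested, 3 passed as higher in *aadd*, against 6.89% of all genes tested. *Fmod*, a collagen-binding proteoglycan, was at 229, 358 and 186 NRPKM in *aadd* and 9.4, 43.8 and 34.5 in hypertrophic (log2 difference 3.35, adjusted *P* of 0.018), *Mkx*, a tendon homeobox gene, at 27.9, 25.5 and 33.6 in *aadd* and 7.42, 2.7 and 5.8 in hypertrophic (adjusted *P* of 0.01), and *Col14a1* at 20.5, 54.6 and 25 in *aadd* and 1.91, 5.36 and 7.48 in hypertrophic (adjusted *P* of 0.03). The defining tendon genes *Scx* and *Tnmd* were under 10 NRPKM in all 6 libraries. Replicate 2 was the highest *aadd* library for these sums and for those of the vessel, macrophage, red cell and muscle lists. Matrix protease genes added *Mmp14*, at 45.8, 82.6 and 48 NRPKM in *aadd* and 62.1, 197 and 189 in hypertrophic, and *Timp1*, at 26.1, 32.1 and 18.9 in *aadd* and 45.3, 121 and 141 in hypertrophic, to the genes highest in replicates 2 and 3 (adjusted *P* of 0.18 and 0.052), *Mmp14* only while *aadd* replicates 1 and 3 and hypertrophic replicates 2 and 3 were all kept.

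Among the genes named by size, the largest difference toward *aadd* was that of *Trabd2b* (chr4:114406724-114615098), which encodes a metalloprotease that inactivates Wnt ligands. It was at 35.5, 41.5 and 30.5 NRPKM in *aadd* and 1.56, 0.373 and 0.66 in hypertrophic, with every *aadd* library high (log2 difference 5.4, standard error 0.44, adjusted *P* of 0.0013, 42.2-fold higher in *aadd*). The WT resting mean was 20.4 NRPKM. *Trhr2*, a thyrotropin-releasing hormone receptor, was at 12.1, 6.56 and 5.62 NRPKM in *aadd* and 0.582, 0 and 0 in hypertrophic (adjusted *P* of 0.0091). *Gna14*, a G protein subunit, was at 9.92, 6.21 and 7.3 in *aadd* and 0.732, 0 and 0 in hypertrophic (adjusted *P* of 0.012). *Rnf39*, a RING finger gene, was at 5.95, 7.51 and 7.64 in *aadd* and 0.906, 0 and 0 in hypertrophic (adjusted *P* of 0.017). *Arsj*, an arylsulfatase, was at 20.3, 16.2 and 17.1 in *aadd* and 3.71, 0 and 0.637 in hypertrophic (adjusted *P* of 0.054). *Cmtm5*, a membrane protein of cartilage, was at 62.6, 57.5 and 51.6 NRPKM in *aadd*, 23.8 in replicate 1 and 1.03 and 0.261 in replicates 2 and 3 (adjusted *P* of 0.086, and 0.00027 without replicate 1).

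The remaining 3 of the 10 largest differences toward *aadd*, *AF357355*, *AF357426* and *DQ267102*, are short rows inside *Rian* on chromosome 12, and none had an adjusted *P* under 0.05. They drew attention to the imprinted interval from *Dlk1* to *Mirg* (chr12:109452823-109749457), which was chosen after its values were seen and is given as a description. *Dlk1*, a Notch-like surface protein of immature cells, was at 92, 107 and 78.7 NRPKM in *aadd*, 28 in replicate 1 and 5.71 and 12.2 in replicates 2 and 3 (log2 difference 2.87, adjusted *P* of 0.022). The noncoding *Rian* was at 339.9, 383 and 294 NRPKM in *aadd* and 131, 23.1 and 32.6 in hypertrophic (log2 difference 2.86, adjusted *P* of 0.035), and *Meg3* at 146, 186 and 121 in *aadd* and 65.7, 7.81 and 11.1 in hypertrophic (log2 difference 3.05, adjusted *P* of 0.055). Replicate 1 lay between the *aadd* libraries and replicates 2 and 3 for each. The interval holds 71 rows, 65 of them under 300 bases. Of these short rows 33 lie inside a longer row, with which they can share reads, and 32 lie outside. Of the 71 rows, 41 were tested, and all 41 met the criteria with no overlap as higher in *aadd*, against 6.89% of all genes tested past the criteria and 16.8% with no overlap in that direction. For the 17 that passed the filter only through *aadd*, the filter itself fixed that the groups did not overlap. An adjusted *P* under 0.05 was reached by 20 of the 41.

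**Figure D5:**
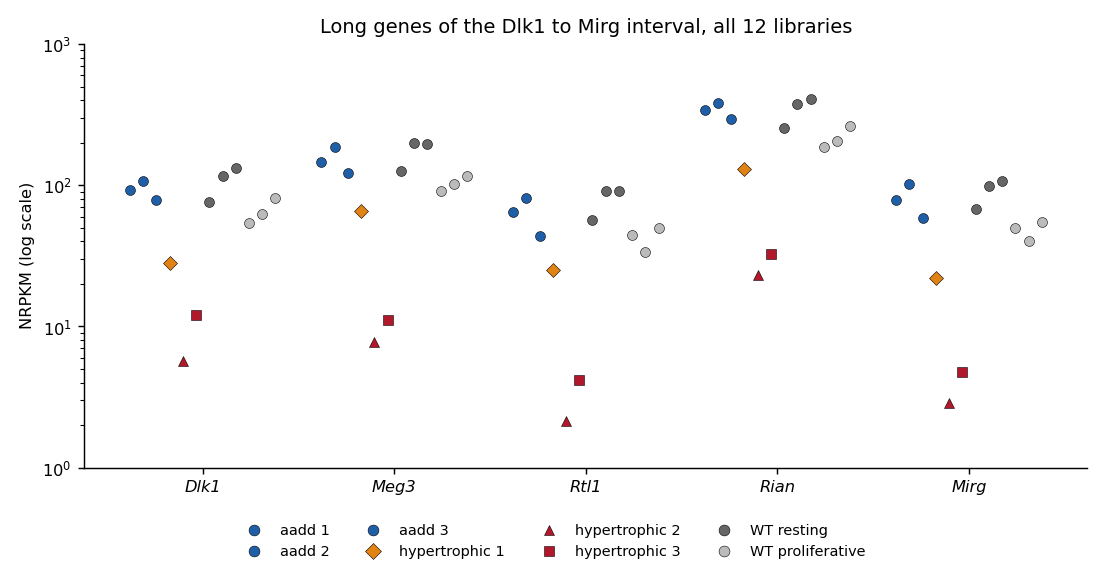
NRPKM of the 5 long genes of the *Dlk1* to *Mirg* interval on a log axis, with *aadd*, WT resting and WT proliferative libraries as circles and hypertrophic replicates 1, 2 and 3 as a diamond, a triangle and a square. For each gene hypertrophic replicates 2 and 3 are the lowest of the 12 libraries, and replicate 1 is the next lowest.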

How the data were processed

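RNA from laser-captured chondrocytes was amplified and sequenced. The deposited values are normalized RPKM (NRPKM) per gene, made by the authors in GeneSpring from reads aligned to mm10 with TopHat per the submitters' processing notes, with duplicate and multiply aligned reads removed. The normalization between libraries, the treatment of overlapping genes and the use of strand are not given in the sources used here. Raw counts were not used, depth was approximated from the lowest values, and intervals for counting error are not given.

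The table was filtered at 5 NRPKM in at least 3 of the 6 libraries, transformed as log2(NRPKM + 0.1) and fitted with limma 3.58.1 in R 4.3.3 over the 3 *aadd* and 3 WT hypertrophic libraries, without covariates and with Benjamini-Hochberg adjustment over all 10196 genes. Summaries were made with pandas 2.3.3 and numpy 2.4.6 in Python 3.11.15, and plots with matplotlib 3.10.9. The fit was tested on simulated data with known changes. Named genes were the 10 largest differences in each direction past the criteria with no overlap and at least 5 NRPKM in all libraries of the higher group, the 5 largest in each direction without hypertrophic replicate 1 at an adjusted *P* under 0.05, the mutated Hox genes and members of 27 gene lists. The rule left out microRNA, small nucleolar RNA and predicted genes by their symbols, which did not catch 3 short rows inside *Rian*. The members and lists were chosen with earlier results of these data known. Alternatives changed the filter, the value added, the scaling, the samples fitted, the variance model and the replicate block. Gene starts and upstream sequences came from the RefSeq annotation of GRCm38.p6, in which 8046 of the 10196 genes had a match. The values of 1 gene counted in a list are not reported here.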

Additional observations from a re-analysis of the deposited data

How the results depend on the processing

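With the 10196 genes tested, 1300 met the criteria, 908 had an adjusted *P* under 0.05 and 787 of these also differed by at least 2-fold. With no filter on low values, these counts were 2751, 373 and 373. With all 12 libraries in 1 limma fit, 1502 genes had an adjusted *P* under 0.05. When each library was left out in turn, the counts ranged from 1100 to 1945, from 311 to 2705 and from 311 to 1830, and the highest of each came without hypertrophic replicate 1. Without that library and with 5 NRPKM asked for in 2 of the 5 libraries left, a setting chosen after seeing the data, they were 2460, 3100 and 2281. Quantile normalization left 49.9% of the genes past the criteria higher in *aadd*, against 54% as deposited, and the setting chosen after seeing the data left 46.1% (1133 against 1327 higher in hypertrophic), so that the balance turned. Of 23 genes named by size, 22 kept their direction and their side of the criteria in all 16 alternatives, and *DQ267102* lost its call in 4. None of these 23 changed sign. Of 27 list medians, 8 changed sign in at least 1 alternative, all of them between -0.19 and 0.19 as reported. Without hypertrophic replicate 1 the median went from 0.03 to -0.74 for immediate early genes and from -0.15 to 0.21 for the PTHrP axis. The median of the skeletal muscle genes could not be computed where all 3 libraries of a group had to reach 5 NRPKM, since none was left.

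Libraries with the same replicate number did not deviate together (correlations of -0.078, 0.027 and -0.083). With 3 libraries a group, such values cannot tell whether the samples were paired. Under a replicate block, 1358 genes met the criteria and 639 were under 0.05 after adjustment, but the labels do not state a pairing.

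With 3 libraries a group, amplified from little RNA, genes of a few reads rest on few molecules. The zone captured differed with the genotype.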

Other observations

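3 further gene groups were drawn up after the values of these libraries had been seen, and so carry no test of the list. Imprinted genes, expressed from 1 parental copy, included some higher in *aadd* outside the interval on chromosome 12. Of 43 listed, 33 were tested, 14 met the criteria as higher in *aadd* (6.89% of all genes tested) and none as higher in hypertrophic, with a median log2 difference of 1.01. These figures count *Dlk1*, *Meg3*, *Rtl1*, *Rian* and *Mirg* of that interval again, all of which met the criteria. An adjusted *P* under 0.05 was reached by 5 (*Dlk1*, *Rian*, *Mirg*, *Mest* and *Copg2*), and by 22 without hypertrophic replicate 1 (4.77% and 13.9% of all genes tested in that direction). Of the 5, only *Mest* and *Copg2* lie outside the interval. *Mest*, a hydrolase-like protein of growing mesoderm, was at 569, 562 and 642 NRPKM in *aadd* and 280.5, 324 and 278 in hypertrophic replicates 1, 2 and 3 (log2 difference 1.01, adjusted *P* of 0.016 in limma), and at 0.97, under 2-fold, without replicate 1. *Peg3*, a zinc finger gene chosen after its values were seen, was at 358, 353 and 304 NRPKM in *aadd*, 319.6 in replicate 1 and 93.1 and 122 in replicates 2 and 3, so that replicate 1 lay inside the *aadd* range (adjusted *P* of 0.17, and 0.0019 without it).

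All 4 nuclear factor I genes, which encode transcription factors of late development, met the criteria as higher in *aadd*, against 6.89% of all genes tested. In limma 3 had an adjusted *P* under 0.05, and *Nfix* had 0.081. The WT resting libraries overlapped those of *aadd* for *Nfia*, *Nfic* and *Nfix*, while for *Nfib* they were lower, at 19.4 to 28.4 NRPKM. *Nfib* was at 46, 41.4 and 50.1 NRPKM in *aadd* and 7.15, 12.9 and 10.1 in hypertrophic, with no overlap (log2 difference 2.21, adjusted *P* of 0.0042), and *Nfia* had a log2 difference of 1.69 (adjusted *P* of 0.005). Of 54 genes of the primary cilium, the antenna in which hedgehog signals are handled, 46 were tested and 9 met the criteria as higher in *aadd* (6.89% of all genes tested), with none as higher in hypertrophic and a median log2 difference of 0.556. An adjusted *P* under 0.05 was reached by 8, and by 20 without hypertrophic replicate 1, against the same shares of all genes. *Ift81*, a carrier subunit, was at 14.9, 15.9 and 15 NRPKM in *aadd* and 5.75, 5.68 and 6.43 in hypertrophic (log2 difference 1.35, adjusted *P* of 0.005).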
